A study of Mus musculus with 12 samples.

Results

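The genes described here load amino acids onto tRNA, make or import amino acids, or belong to the stress programme that regulates these steps. They are the aminoacyl-tRNA synthetases, the scaffold proteins Aimp1 and Aimp2 of the multisynthetase complex, the enzymes of asparagine, serine, glycine and one-carbon synthesis (Asns, Phgdh, Psat1, Psph, Shmt1, Shmt2 and Mthfd2), the amino acid carriers Slc7a5, Slc3a2 and Slc7a11, and Chac1 and Trib3. Members were chosen by gene symbol, with earlier results of these data known. The probe set of highest average signal stood for each symbol, which gave 40 of the 12393 genes with a single symbol on the array. A gene was tested when it lay above the 40th percentile of all probe sets on at least 3 arrays, and 36 of the 40 members met this. Ears2, Slc7a11, Trib3 and Vars did not. Every tested member was above the percentile on at least 2 of 3 arrays in each group, so none was tested on account of 1 group alone. Synthetase symbols of the family outside these 40, such as Dars and Mars, are not analysed here.

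Striatum was profiled in C57Bl/6 mice, 1 array per mouse and 3 mice per group. The groups were TIF-IAD1RCre mutants at 9 weeks, controls at 9 weeks, TIF-IAD1RCre mutants at 13 weeks and controls at 13 weeks. TIF-IA, the product of Rrn3, recruits RNA polymerase I to the ribosomal RNA genes, and the D1R-driven Cre acts in neurons with the D1 dopamine receptor, so that other striatal cells keep the gene. The labels give no alleles for the controls, and they name medium spiny neurons as the cell type. However, all 12 astrocyte, 14 microglia and 7 oligodendrocyte markers measured lay above the percentile beside the 12 medium spiny neuron markers, so the values are those of whole striatal tissue, in which fewer cells of a type and less RNA per cell cannot be told apart.

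Aminoacyl-tRNA synthetases join each amino acid to its tRNA, one set working in the cytosol and another, encoded by separate nuclear genes, in mitochondria. Several cytosolic synthetases assemble with the scaffolds Aimp1, Aimp2 and Eef1e1 into one complex. When amino acids run short or proteins misfold, kinases phosphorylate eIF2, translation of the transcription factor Atf4 rises, and Atf4 can activate many of these genes, among them Asns, Psat1, Psph, Shmt2, Mthfd2, Slc7a5, Slc3a2, Chac1, Trib3 and most cytosolic synthetases. In brain, the serine pathway is known to be active mainly in astrocytes.

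The deleted gene and the arrays bear on every comparison. Rrn3 had log2 values of 6.90, 6.96 and 6.91 in the mutants and 8.0, 7.97 and 8.20 in the controls at 9 weeks, a fall of 1.13 ± 0.18 (standard error from limma, SE; adjusted p = 0.00748). At 13 weeks its values were 7.72, 7.58 and 7.18 in mutants and 7.96, 7.54 and 8.04 in controls, and the groups overlapped (-0.35 ± 0.18, limma adjusted p = 0.128). Between 9 and 13 weeks Rrn3 rose in mutants by 0.57 ± 0.18 (limma adjusted p = 0.0291). In control mouse 3 at 13 weeks, 20.6% of the genes tested lay more than 1 log2 from the mean of the other controls of that age, against 0.388% to 4.99% for the other arrays. Differences of the members called at 13 weeks, and of some other genes, are therefore given also without it, in the text or a figure. Counts over the further gene lists and the cell markers include it. Judged by Xist and Eif2s3y, all 3 mutants at 13 weeks and 1 of 3 mice in each other group were female. The female control at 13 weeks was mouse 3. Without it 3 female mutants are set against 2 male controls, so sex and genotype cannot be told apart in those results. A term for sex ended 2 of the 30 calls of members over the 5 comparisons, those of Yars at 13 weeks and of Rars2 between ages in mutants. Within the groups at 13 weeks, only control mouse 3 sets the sexes apart for this term. The number of arrays limits the precision, and the labels call the 3 arrays of a group biological replicates.

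At 9 weeks 2 members rose in mutants and none fell. They were Psph, the phosphatase that completes serine synthesis, and Aimp1, a scaffold of the synthetase complex. This was 5.56% of the 36 members tested, beside 5% of all 8256 genes tested in either direction, 2.02% higher and 2.98% lower. A member or gene passed, here and below, at an adjusted p under 0.05 in limma's test, with Benjamini-Hochberg adjustment over all genes tested. At an unadjusted p under 0.05, 8 members (22.2%) differed at 9 weeks, beside 21.4% of all genes tested, so the share of members was that of all genes.

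Psph had log2 values of 8.61, 8.82 and 8.89 in mutants against 7.98, 7.92 and 7.90 in controls at 9 weeks. All 3 mutants lay above all 3 controls, the means being 8.77 ± 0.15 in mutants and 7.93 ± 0.04 in controls (SD, n = 3 each). The difference was 0.84 ± 0.14 (SE), or 1.79-fold, with an adjusted p of 0.00894 in limma's test. Leaving out mutant mouse 2 at 9 weeks lost the call (adjusted p = 0.0554), and over all 12 fits without 1 array the difference was 0.78 to 0.92.

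Aimp1 had log2 values of 10.96, 11.08 and 11.03 in mutants against 10.25, 10.39 and 10.28 in controls at 9 weeks. The 3 mutants again lay above the 3 controls, by 0.72 ± 0.15 (SE) or 1.64-fold (limma adjusted p = 0.0241). The difference stayed between 0.69 and 0.76 in all 12 fits that left out 1 array, but it did not pass without any 1 of the 6 arrays at 9 weeks (highest adjusted p = 0.0984). The partner scaffold Aimp2 had values of 9.21, 9.29 and 9.29 in mutants against 8.92, 9.03 and 9.04 in controls, without overlap, but its difference of 0.27 ± 0.14 did not pass (adjusted p = 0.319). Eef1e1, the other scaffold and no member, differed by 1.01 ± 0.29 (adjusted p = 0.0657).

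None of the other 6 enzymes of this group passed at 9 weeks. In Phgdh, Psat1 and Mthfd2 the mutants lay above the controls without overlap, and in Asns, Shmt1 and Shmt2 the groups overlapped. Phgdh, the first enzyme of the pathway, had 10.89, 11.15 and 11.62 in mutants against 10.70, 10.75 and 10.71 in controls, a difference of 0.50 ± 0.18 (adjusted p = 0.14). Mutant mouse 3 at 9 weeks had the highest value, and without it the difference was 0.30. Among the mutants of this age that mouse also had the highest mean level of microglia markers (9.07, against 8.24 and 8.58 in the other mutants), of astrocyte markers (9.74, against 9.48 and 9.56) and of 4 cortical, thalamic and midbrain neuron markers (6.28, against 3.68 and 3.78). The last list was also high in control mice 1 and 2 at 13 weeks, at 6.34 and 4.66. The part of these levels in the result was not tested. Psat1, the aminotransferase between Phgdh and Psph, had 10.72, 10.80 and 10.80 in mutants against 10.50, 10.39 and 10.27 in controls (0.39 ± 0.14, adjusted p = 0.141). Mthfd2, a mitochondrial folate enzyme, had 6.23, 6.14 and 5.93 in mutants against 5.20, 5.75 and 5.84 in controls (0.50 ± 0.21, adjusted p = 0.189). In 4 of the 7 enzymes, Psph, Phgdh, Psat1 and Mthfd2, the lowest mutant exceeded the highest control. Over all 36 members this held for 11, or 30.6%, and the reverse for 2, or 5.56%, beside 15% and 20.6% of all genes tested. The median difference was 0.39 over the 7 enzymes and 0.14 over all members, beside -0.02 over all genes tested.

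Astrocyte markers gave 0 of 12 calls at 9 weeks in limma's test (1 at an unadjusted p under 0.05), with a median difference of 0.06 and mean log2 levels of 9.48 to 9.74 in mutants and 9.37 to 9.56 in controls. Of 12 medium spiny neuron markers 3 fell (25%, beside 2.98% of all genes tested), and their mean level was 10.58 to 10.94 in mutants and 11.45 to 11.49 in controls. Their part in the differences of the serine enzymes was not tested.

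Among the 17 cytosolic synthetases tested at 9 weeks 0 passed in limma's test, with 2 (11.8%) at an unadjusted p under 0.05 beside 21.4% of all genes tested, and the differences ran from -0.20 for Qars to 0.54 for Farsa. Farsa and Farsb encode the subunits of the phenylalanine enzyme. Farsa had 7.04, 7.09 and 7.24 in mutants against 6.48, 6.74 and 6.52 in controls, without overlap (0.54 ± 0.19, adjusted p = 0.116). It passed without control mouse 3 at 13 weeks (adjusted p = 0.0376), which enters through the shared estimate of spread, and in a fit to the 6 arrays at 9 weeks alone (adjusted p = 0.0325). Farsb differed by 0.41 ± 0.25 and Eprs, the double enzyme for glutamate and proline, by 0.19 ± 0.13, each with all 3 mutants above the controls. Tars, the threonine enzyme, had 8.53, 8.53 and 7.78 in mutants against 7.90, 7.80 and 7.60 in controls, so that only mutant mouse 3 overlapped the controls. The remaining cytosolic enzymes differed by at most 0.36 (Rars), and Wars, the tryptophan enzyme, which is known to be induced by interferon gamma, differed by 0.003 (95% confidence interval -0.29 to 0.29).

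Of the 7 mitochondrial synthetases tested at 9 weeks, 0 passed in limma's test, and 1 (14.3%), Rars2, differed at an unadjusted p under 0.05, beside 21.4% of all genes tested. Rars2, the mitochondrial arginine enzyme, had 7.22, 7.58 and 8.07 in mutants against 8.14, 8.20 and 8.36 in controls, all mutants lower (-0.61 ± 0.22, adjusted p = 0.136). Pars2, the mitochondrial proline enzyme, had 5.97, 6.20 and 5.89 in mutants against 6.27, 6.59 and 6.50 in controls, also without overlap (-0.43 ± 0.22, adjusted p = 0.291). Tars2 was higher in all 3 mutants by 0.28 ± 0.22. The carriers Slc7a5 and Slc3a2 differed by -0.34 ± 0.42 and 0.17 ± 0.22 at this age, and mutant mouse 3 had the lowest Slc7a5 value of all arrays, 4.32.

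**Figure D1:**
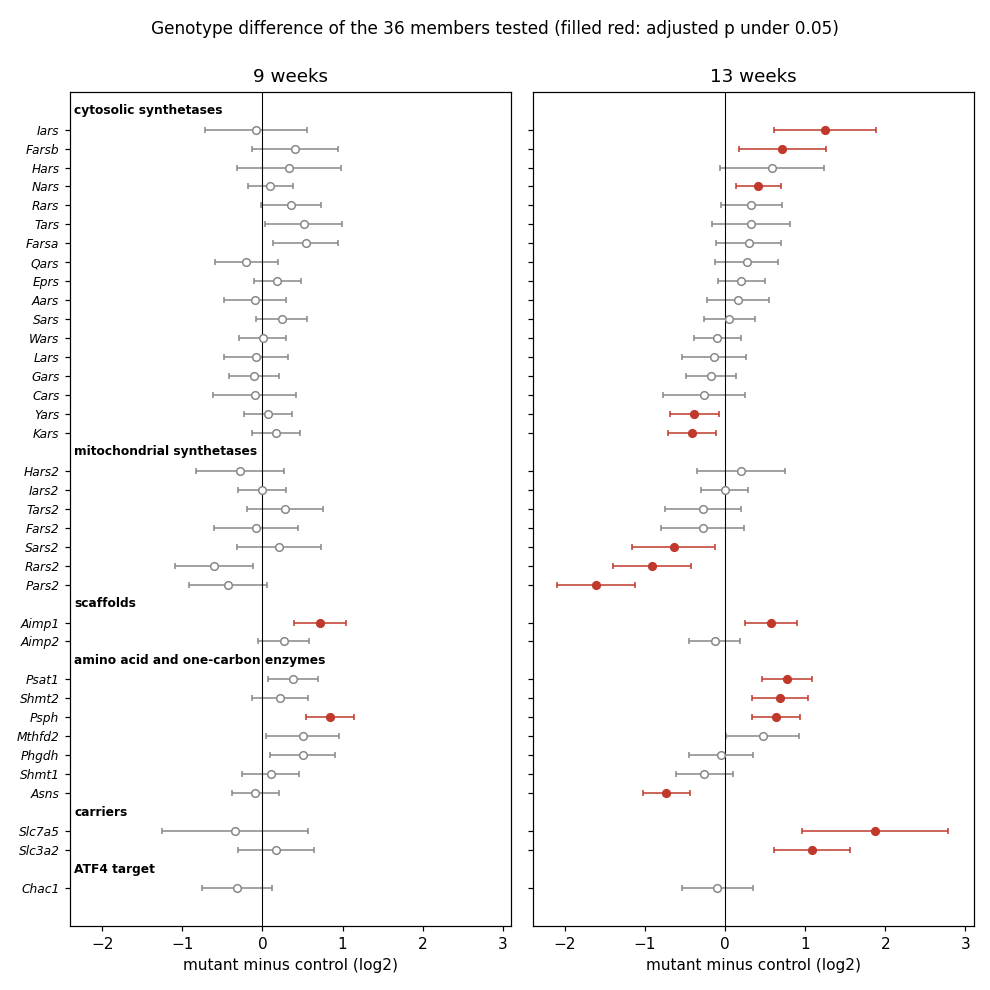
Difference of mutants from controls (x axis, log2) at 9 weeks (left) and 13 weeks (right) for the 36 members tested, ordered by role, with points for the estimate, bars for its 95% confidence interval and filled red points for an adjusted p under 0.05. Aimp1 and Psph are filled at 9 weeks, and 15 members are filled at 13 weeks, from Pars2 at -1.61 to Slc7a5 at 1.87.

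At 13 weeks 9 members rose and 6 fell in mutants. The rises were those of the carriers Slc7a5 and Slc3a2, of Psat1, Psph and Shmt2 in serine and glycine synthesis, of Aimp1, and of the cytosolic synthetases Iars, Farsb and Nars. The falls were those of Asns, which makes asparagine, of the mitochondrial synthetases Pars2, Rars2 and Sars2, and of the cytosolic synthetases Kars and Yars. The 15 calls were 41.7% of the members tested, beside 45.3% of all genes tested, 23.4% higher and 21.9% lower, so the share of members called lay near that of all genes. The members' differences were also smaller, with a median absolute size of 0.33 against 0.53 for all genes tested, and 4 members (11.1%) against 26.7% of all genes tested differed by more than 1 log2. All 3 mutants lay above all 3 controls in 9 members and below them in 7, beside 27.8% and 26.8% of all genes tested. Centring each array on its median shifted the median of all differences at 13 weeks by -0.16. The calls over all genes were 1932 higher and 1812 lower as deposited and 1560 higher and 2386 lower after centring, and members called were 6 higher and 6 lower. All 15 members called kept their direction after centring, while Aimp1, Farsb and Nars no longer passed.

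Markers of most cell types moved widely at this age, when 45.3% of all genes tested were called (23.4% higher and 21.9% lower). Oligodendrocyte markers moved less, with 2 of 7 higher and 0 lower (12.09 to 12.32 in mutants, 11.58 to 11.90 in controls). Medium spiny neuron markers fell in 11 of 12 genes, with mean log2 levels of 8.77 to 9.60 in mutants and 11.21 to 11.66 in controls. Astrocyte markers rose in 10 of 12 (11.23 to 11.37 in mutants, 9.50 to 9.60 in controls), microglia markers in 12 of 14 (10.90 to 11.29 in mutants, 8.37 to 8.81 in controls), endothelial markers in 4 of 6 (6.12 to 6.64 in mutants, 4.76 to 5.50 in controls) and interferon-induced genes in 10 of 10 (9.29 to 10.15 in mutants, 3.77 to 3.81 in controls, where 5 of the 10 lay under the percentile on every array). The part of these shifts in the differences below was not tested.

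Slc7a5, the catalytic chain of the large neutral amino acid carrier, had the largest rise among the members. Its log2 values were 7.72, 7.49 and 7.18 in mutants against 5.72, 5.0 and 6.06 in controls at 13 weeks. All mutants lay above all controls, by 1.87 ± 0.42 (SE) or 3.66-fold (limma adjusted p = 0.00327), and by 2.10 without control mouse 3. The carrier is known to be abundant in brain endothelium. Its heavy chain Slc3a2 had 10.76, 10.76 and 10.68 in mutants against 9.33, 9.35 and 10.27 in controls (1.08 ± 0.22, 2.12-fold, adjusted p = 0.00171). Control mouse 3 lay closer to the mutants than to the other controls, and without it the difference was 1.39 (adjusted p = 3.24e-06). Slc7a11, the cystine carrier that pairs with the same heavy chain, stayed between 2.61 and 3.29 on all 12 arrays and was not tested.

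In serine synthesis, Psat1 had 11.54, 11.60 and 11.26 in mutants against 10.75, 10.79 and 10.55 in controls at 13 weeks, without overlap (0.77 ± 0.14, 1.71-fold, adjusted p = 0.00103). Its second probe set differed by 1.26, with control mouse 3 at 8.98 against 10.58 and 10.55 in the other controls. Psph had 9.29, 9.18 and 9.15 in mutants against 8.40, 8.67 and 8.64 in controls, again without overlap (0.64 ± 0.14, 1.55-fold, adjusted p = 0.00263). Phgdh, the first step, had 10.92, 10.92 and 10.69 in mutants against 10.71, 11.04 and 10.93 in controls, with overlap, and the difference was -0.05 (95% confidence interval -0.45 to 0.35). Its other probe sets differed by 0.42, -0.12 and 0.08. The 3 enzymes of one short pathway therefore had different results at 13 weeks, with Psat1 and Psph past the test and Phgdh not.

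Shmt2, the mitochondrial enzyme that turns serine into glycine and a one-carbon unit, had 7.51, 7.55 and 7.44 in mutants against 6.56, 6.89 and 6.98 in controls at 13 weeks (0.69 ± 0.16, 1.61-fold, adjusted p = 0.00415), without overlap. Its other probe sets differed by -0.19, 0.57 and -0.04, and the mean of all of them did not pass (0.26, adjusted p = 0.168). Mthfd2, the next mitochondrial folate step, had 6.22, 6.27 and 5.88 in mutants against 5.35, 5.73 and 5.88 in controls and did not pass (0.47 ± 0.21, adjusted p = 0.0843), though it did without control mouse 3 (0.58, adjusted p = 0.043). Shmt1, the cytosolic counterpart of Shmt2, differed by -0.26 ± 0.16 (adjusted p = 0.22).

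Asns fell. Its log2 values were 9.93, 9.81 and 9.90 in mutants against 10.73, 10.48 and 10.63 in controls at 13 weeks, with all mutants below all controls. The difference of -0.73 ± 0.13 (SE), a 1.66-fold fall, had an adjusted p of 0.000878 in limma's test, and it passed in all 12 fits without 1 array (-0.80 to -0.68). The second Asns probe set differed by -0.93. At 9 weeks Asns had 10.66, 10.68 and 10.43 in mutants against 10.69, 10.71 and 10.63 in controls (-0.09 ± 0.13, adjusted p = 0.769), and the genotype difference changed between ages by -0.65 ± 0.19 (adjusted p = 0.0328).

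**Figure D2:**
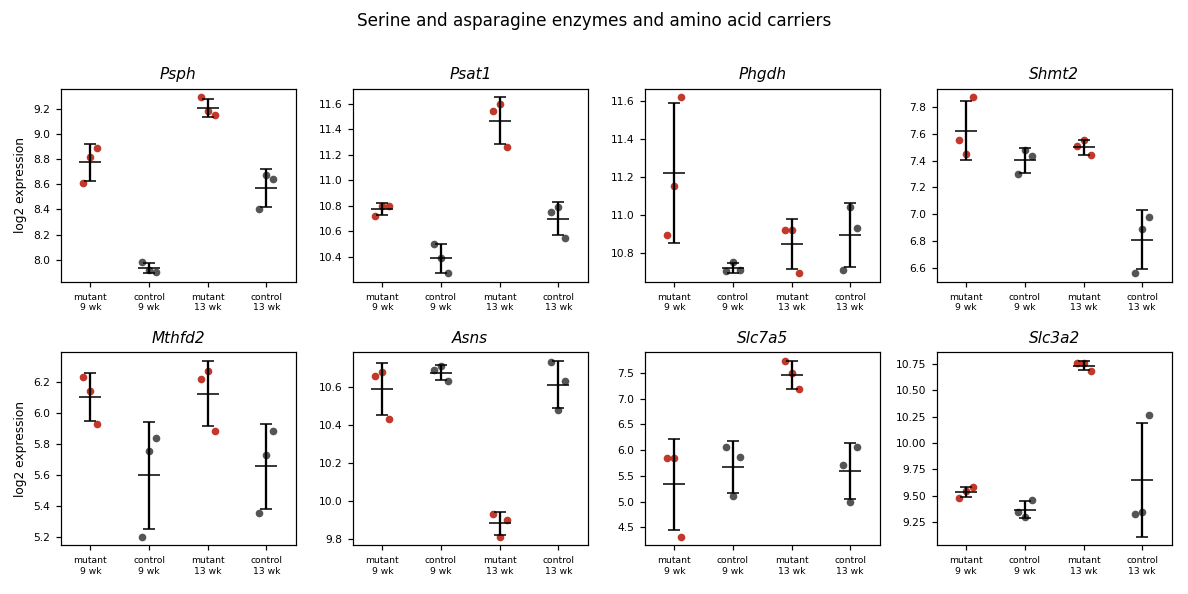
Log2 expression (y axis, a scale of its own in each panel) of amino acid enzymes and carriers in the 4 groups, with red points for mutant mice, grey points for control mice, horizontal bars for the mean and vertical bars for 1 SD (n = 3). Psph mutants lie above the controls at both ages, Asns mutants at 13 weeks (9.81 to 9.93) lie below all other arrays, and control mouse 3 at 13 weeks (10.27) stands apart in Slc3a2.

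Of the 17 cytosolic synthetases tested at 13 weeks 3 rose and 2 fell, and 12 did not pass, with a median difference of 0.20 (all genes tested, 0.003). The calls were 29.4% (17.6% higher and 11.8% lower), beside 45.3% of all genes tested (23.4% higher and 21.9% lower). Iars, the isoleucine enzyme of the multisynthetase complex, had 9.06, 9.02 and 8.91 in mutants against 8.25, 8.14 and 6.86 in controls. The mutants lay above the controls by 1.25 ± 0.29 (SE), 2.37-fold (limma adjusted p = 0.00445), and without control mouse 3, the lowest array, by 0.80 (adjusted p = 0.000408). Its second probe set differed by 0.56, and control mouse 3 had 7.94 there, above the other controls at 7.45 and 7.28. Farsb had 10.22, 10.10 and 9.99 in mutants against 9.85, 9.61 and 8.70 in controls (0.72 ± 0.25, adjusted p = 0.0327). Without control mouse 3 its difference was 0.37 (adjusted p = 0.0492), it did not pass without any 1 of the mutants at 13 weeks, and 2 further probe sets differed by 0.03 and 0.06. Nars, the asparagine enzyme, had 11.01, 11.05 and 11.15 in mutants against 10.77, 10.69 and 10.51 in controls (0.41 ± 0.13, adjusted p = 0.0211), and its second probe set differed by 0.39. Leaving out mutant mouse 2 or 3 at 13 weeks lost the Nars call (highest adjusted p = 0.0544).

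The cytosolic synthetases that fell did so by small amounts. Kars, the lysine enzyme, whose gene also encodes the mitochondrial form, had 9.11, 8.96 and 9.03 in mutants against 9.32, 9.41 and 9.61 in controls (-0.41 ± 0.14, 1.33-fold, adjusted p = 0.0276), without overlap. The call was lost when mutant mouse 2 or 3 of that age was left out (highest adjusted p = 0.0915). Yars, the tyrosine enzyme, had 6.92, 6.99 and 7.02 in mutants against 7.24, 7.41 and 7.43 in controls (-0.38 ± 0.14, adjusted p = 0.0409), and it passed in only 3 of 12 fits without 1 array, failing also without control mouse 3 (adjusted p = 0.0535) and with a term for sex (-0.39, adjusted p = 0.0745). Gars, which also serves both compartments, lay lower in all 3 mutants, at 9.79, 9.92 and 9.85 against 9.98, 9.95 and 10.16 in controls, but its difference of -0.18 ± 0.14 did not pass. Hars had a difference of 0.58 ± 0.30 that did not pass (adjusted p = 0.131), and 0.18 without control mouse 3, whose value was 9.97 against 11.32 and 11.01 in the other controls. Wars differed by -0.10 ± 0.13 (95% confidence interval -0.39 to 0.19), in tissue where all 10 interferon-induced genes rose. Rars passed only without control mouse 3 (0.44, adjusted p = 0.0461), against 0.33 ± 0.17 (adjusted p = 0.144) with it. The rest, Aars, Cars, Eprs, Farsa, Lars, Qars, Sars and Tars, differed by -0.26 to 0.32 and did not pass.

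Aimp1 had 10.69, 10.78 and 10.89 in mutants against 10.20, 10.46 and 9.98 in controls at 13 weeks, without overlap (0.57 ± 0.15, 1.49-fold, adjusted p = 0.00773), and Aimp2 had 9.11, 8.67 and 9.03 in mutants against 8.98, 9.06 and 9.16 in controls, with overlap (-0.13 ± 0.14, adjusted p = 0.486). Eef1e1 rose by 1.25 ± 0.29 (adjusted p = 0.00409). Control mouse 3, at 8.45, was its lowest array, and without it the rise was 0.81 ± 0.12 (adjusted p = 0.00027). Of the 6 synthetases of the complex that were measured, Iars rose, Kars fell, and Eprs, Lars, Qars and Rars did not pass. Its measured synthetases thus had calls in both directions at 13 weeks.

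The mitochondrial synthetases had the largest fall among the members. At 13 weeks 3 of 7 tested fell and 0 rose, with a median difference of -0.28. The calls were 42.9% of these enzymes, beside 45.3% of all genes tested in either direction and 21.9% lower. Pars2 had 4.68, 4.27 and 4.82 in mutants against 5.95, 5.95 and 6.70 in controls, with every mutant below every control. The difference was -1.61 ± 0.22 (SE), a 3.05-fold fall (limma adjusted p = 0.000126), and -1.36 without control mouse 3. Rars2 had 6.62, 6.65 and 7.24 in mutants against 7.75, 7.80 and 7.70 in controls (-0.91 ± 0.22, 1.88-fold, adjusted p = 0.00562), without overlap, and it passed in all 12 fits without 1 array. Sars2, the mitochondrial serine enzyme, had 4.90, 4.82 and 4.89 in mutants against 5.15, 5.29 and 6.09 in controls (-0.64 ± 0.24, adjusted p = 0.045), but control mouse 3 was the highest and without it the difference was -0.35 (adjusted p = 0.12). Fars2, Tars2, Iars2 and Hars2 differed by -0.28, -0.27, -0.01 and 0.20 and did not pass. Ears2 lay between 2.38 and 3.19 on all arrays and was not tested.

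**Figure D3:**
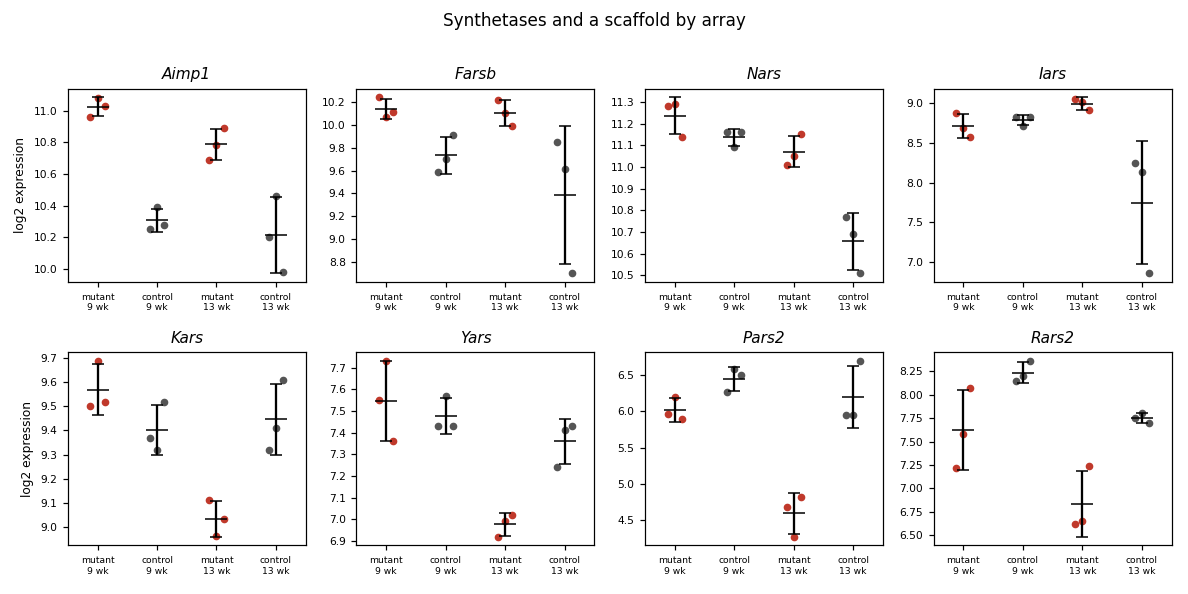
Log2 expression (y axis, a scale of its own in each panel) of the scaffold Aimp1, 5 cytosolic and 2 mitochondrial synthetases in the 4 groups, with red points for mutant mice, grey points for control mice, horizontal bars for the mean and vertical bars for 1 SD (n = 3). Pars2 mutants at 13 weeks (4.27 to 4.82) lie below every other array, and control mouse 3 at 13 weeks is the lowest array for Iars (6.86) and Farsb (8.70).

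**Figure D4:**
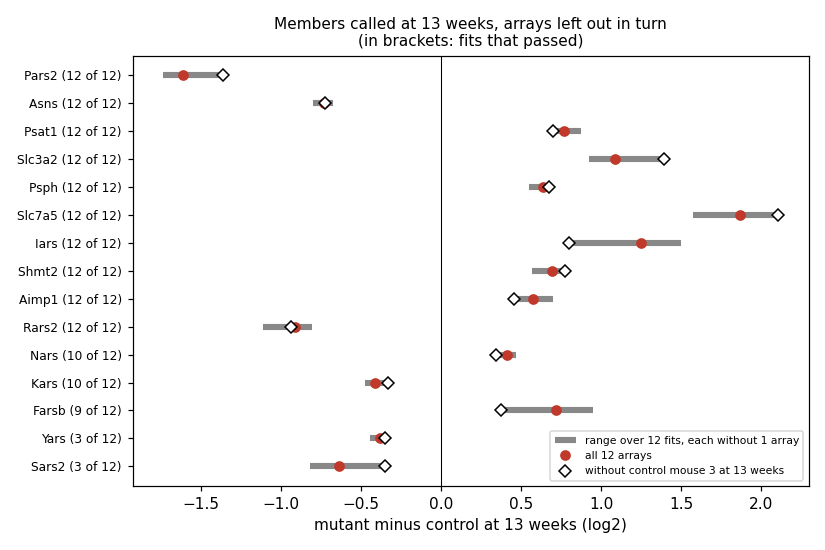
Difference of mutants from controls at 13 weeks (x axis, log2) for the 15 members called, with red points for all 12 arrays, grey bars for the range over 12 fits that each left out 1 array, open diamonds for the fit without control mouse 3 at 13 weeks, and in brackets the number of fits that passed. In all 12 fits 10 of the 15 members passed, and Yars and Sars2 passed in 3.

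An interaction term tested whether the genotype difference changed from one age to the other. In this test 4 members passed, 11.1% of those tested beside 18.4% of all genes tested (12.1% higher and 6.38% lower at 13 weeks; 996 higher and 527 lower as deposited, 877 and 766 after centring). Slc7a5 (2.21 ± 0.59, adjusted p = 0.0216) and Iars (1.32 ± 0.41, adjusted p = 0.0443) had a more positive difference at 13 weeks, and Pars2 (-1.18 ± 0.32, adjusted p = 0.0224) and Asns a more negative one. In a limma fit of every probe set, the second probe sets of Iars (0.43, adjusted p = 0.296) and Asns (-0.58, adjusted p = 0.132) did not pass. Each of the 4 calls was lost in at least 3 of 12 fits without 1 array, with adjusted p of at most 0.0976. Without control mouse 3 at 13 weeks the changes were 2.44 for Slc7a5, 0.88 for Iars, -0.93 for Pars2 and -0.64 for Asns, and all passed. Slc3a2 did not pass with all arrays (0.92 ± 0.31, adjusted p = 0.0593) and passed without that mouse (1.23, adjusted p = 0.000177). The same held for Kars, with a change of -0.58 ± 0.19 (adjusted p = 0.0577) with all arrays and -0.50 (adjusted p = 0.0488) without that mouse. For Psph and Aimp1, called at both ages, the changes were -0.20 ± 0.19 and -0.14 ± 0.21 and did not pass.

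Between 9 and 13 weeks 9 members changed in mutants, 25% of those tested beside 32.7% of all genes tested (16.1% higher and 16.6% lower). Slc7a5 (2.13 ± 0.42), Slc3a2 (1.20 ± 0.22), Psat1 (0.69 ± 0.14) and Psph (0.43 ± 0.14) were higher at 13 than at 9 weeks, and Pars2 (-1.43 ± 0.22), Rars2 (-0.79 ± 0.22), Asns (-0.71 ± 0.13), Yars (-0.57 ± 0.14) and Kars (-0.54 ± 0.14) were lower. Psph lost its call without mutant mouse 1 or 2 of either age (highest adjusted p = 0.112), Rars2 without mutant mouse 3 at 9 weeks or mutant mouse 1 or 2 at 13 weeks (highest adjusted p = 0.0785) or with a term for sex (-0.68, adjusted p = 0.0705), and Kars without mutant mouse 2 at 9 weeks (adjusted p = 0.0525). This comparison shares the mutant arrays with those above. In controls 0 members passed limma's test between these ages, beside 0.145% of all genes tested, 0.0848% higher and 0.0606% lower. At an unadjusted p under 0.05 there were 6 members (16.7%), beside 17.3% of all genes tested. Psph (0.64) and Sars2 (0.72) were higher at 13 weeks, and Iars (-1.04), Shmt2 (-0.59), Qars (-0.56) and Nars (-0.48) were lower. Control mouse 3 at 13 weeks enlarged some of these. The Iars control mean was 8.79 at 9 weeks and 7.75 at 13 weeks, or 8.195 without that mouse. For Sars2 these means were 4.79, 5.51 and 5.22, and for Qars 9.24, 8.68 and 8.875. Those of Psph, Shmt2 and Nars moved less without it. Iars, Shmt2, Nars and Sars2 were called between genotypes at 13 weeks. In mutants they changed between ages by 0.28, -0.12, -0.17 and -0.13 and did not pass. The lowest adjusted p among the members was that of Psph, 0.0991, with 8.57 ± 0.15 at 13 weeks and 7.93 ± 0.04 at 9 weeks (SD, n = 3 each).

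The transcription factor Atf4 rose at both ages. It had 10.35, 10.28 and 10.08 in mutants against 9.45, 9.41 and 9.59 in controls at 9 weeks (0.75 ± 0.17, adjusted p = 0.0286), and 11.24, 10.93 and 10.62 in mutants against 9.26, 9.30 and 9.24 in controls at 13 weeks (1.66 ± 0.17). Ddit3, the stress transcription factor CHOP, rose by 1.25 ± 0.19 at 9 weeks and by 0.97 ± 0.19 at 13 weeks. Of 22 integrated stress response genes tested that are no members, 2 rose and 0 fell at 9 weeks (9.09%, beside 5% of all genes tested), and 9 rose and 2 fell at 13 weeks (50%, beside 45.3%). Without control mouse 3 at 13 weeks the falls of Eif2ak1 (-0.325, limma adjusted p = 0.0545) and Eif2b5 (-0.285, adjusted p = 0.0976) no longer passed. The rise of Eif2b2 was lost too (0.34, adjusted p = 0.0854), while Atf5 passed as a rise (0.83, adjusted p = 0.00809) and Vldlr as a fall (-0.43, adjusted p = 0.0262). With all arrays, the genes of this list with the smallest p at 13 weeks were Atf3, a stress-induced transcription factor (5.10 ± 0.23), Nupr1 (5.10 ± 0.27), Atf4, and Eif2ak2, the kinase PKR, itself an interferon-induced gene (2.95 ± 0.30). Atf3 (2.23 to 2.32) and Eif2ak2 (2.88 to 3.16) lay under the percentile on every control array at 13 weeks and were tested on account of the mutants of that age, so their exact differences rest on the dimmest signals. Both are among the 9 rises, so the share of 50% includes genes that could be tested only because they rose. Chac1, an enzyme that degrades glutathione and a known Atf4 target, had 4.64, 4.71 and 4.66 in mutants against 4.89, 4.69 and 4.72 in controls at 13 weeks, with overlap (-0.10, 95% confidence interval -0.54 to 0.34). Trib3, another such target, stayed between 2.60 and 2.96 on all arrays and was not tested.

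**Figure D5:**
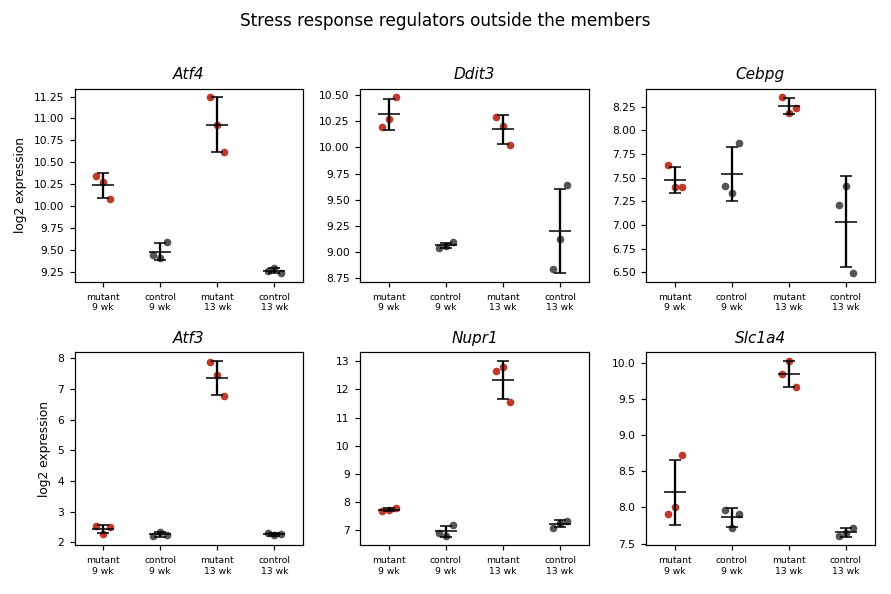
Log2 expression (y axis, a scale of its own in each panel) of 5 regulators or markers of the stress response and of the amino acid carrier Slc1a4, none of them members, in the 4 groups, with red points for mutant mice, grey points for control mice, horizontal bars for the mean and vertical bars for 1 SD (n = 3). Atf4 mutants lie above controls at both ages (10.08 to 11.24 against 9.24 to 9.59).

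Among 18 further genes of amino acid metabolism and transport tested, 0 rose and 2 fell at 9 weeks (11.1%, beside 5%), and 9 rose and 3 fell at 13 weeks (66.7%, beside 45.3% of all genes tested), with a median of 0.72 at 13 weeks. Without control mouse 3 at 13 weeks the difference of Slc38a2 went from 1.39 to 0.58 and no longer passed (limma adjusted p = 0.0766). Slc6a9 passed as a rise only without that mouse (1.17, adjusted p = 0.00391). The carriers for small neutral amino acids Slc1a5 (3.31 ± 0.22) and Slc1a4 (2.19 ± 0.21), the astrocytic folate enzyme Aldh1l1 (2.10 ± 0.26) and the aspartate aminotransferase Got1 (-1.60 ± 0.24) had the smallest p at 13 weeks. Slc1a5 lay between 5.23 and 6.10 in mutants and between 2.26 and 2.63 in controls, under the percentile of every control array, and the size of its rise therefore rests on the dimmest signals. Its rise is among the 9 counted in the 66.7%. Got1 and Srr, the racemase that makes D-serine, were the genes that fell at 9 weeks (-1.03 ± 0.24 and -0.66 ± 0.14).

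The promoters were searched for the core of the element that Atf4 and C/EBP proteins bind together, TGATGNAA, on both strands, where the opposite strand reads TTNCATCA. RefSeq promoter windows of 300 bases, 250 before to 50 after the start site (build GRCm38.p6), were matched for 30 of the 40 members. Known Atf4 targets are among the members by choice, so a higher share of matches in them is no independent result. The share of members is also counted over genes and that of all promoters over windows. The core was found in 9 of these 30 genes (30%), Aars, Asns, Chac1, Gars, Iars, Slc7a11, Tars, Trib3 and Yars, beside 3.97% of all 32851 windows. Slc7a11 and Trib3 were not tested. Of the other 7 genes, Asns and Yars were called lower and Iars higher in mutants at 13 weeks, a share near the 45.3% of all genes tested. Their sequences are shown with that of Chac1, which did not pass, and with that of Psph, called at both ages and with no match in its window. Each runs 5′ to 3′ from 200 bases before to 20 bases from the start site on, with the match in capitals.
Asns, chr6:7693190-7693409, minus strand: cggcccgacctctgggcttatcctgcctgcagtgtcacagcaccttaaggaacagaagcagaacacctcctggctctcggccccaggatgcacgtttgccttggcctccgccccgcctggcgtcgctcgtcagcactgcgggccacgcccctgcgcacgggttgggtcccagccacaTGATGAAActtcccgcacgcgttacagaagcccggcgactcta
Yars, chr4:129189703-129189922, plus strand: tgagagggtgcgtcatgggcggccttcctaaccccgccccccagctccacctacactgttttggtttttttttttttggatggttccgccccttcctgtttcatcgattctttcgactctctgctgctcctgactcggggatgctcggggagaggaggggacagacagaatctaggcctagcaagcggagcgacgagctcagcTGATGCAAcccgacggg
Iars, chr13:49681930-49682149, plus strand: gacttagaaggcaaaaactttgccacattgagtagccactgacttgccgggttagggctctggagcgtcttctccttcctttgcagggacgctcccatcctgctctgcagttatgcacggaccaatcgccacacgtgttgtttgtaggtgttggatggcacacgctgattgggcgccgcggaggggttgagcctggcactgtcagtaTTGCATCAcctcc
Chac1, chr2:119351042-119351261, plus strand: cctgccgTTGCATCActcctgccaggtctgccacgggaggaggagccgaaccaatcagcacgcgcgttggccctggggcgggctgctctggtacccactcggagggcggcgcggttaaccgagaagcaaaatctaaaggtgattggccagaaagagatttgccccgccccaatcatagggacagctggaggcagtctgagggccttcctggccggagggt
Psph, chr5:129787234-129787453, minus strand: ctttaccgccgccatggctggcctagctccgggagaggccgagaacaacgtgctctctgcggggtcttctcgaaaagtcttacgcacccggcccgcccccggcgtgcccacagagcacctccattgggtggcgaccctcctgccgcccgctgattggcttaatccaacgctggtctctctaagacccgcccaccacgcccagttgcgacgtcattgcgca
The match began 23 bases before the start site in Asns and 193 before it in Chac1. In Yars and Iars it began 3 and 7 bases after the start site. Slc7a11, which stayed near the bottom of the scale, held 2 copies, 66 and 47 bases before its start site. These matches describe the letters only and do not show binding in this tissue.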

How the data were processed

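Total RNA of 12 mouse striata was hybridised to Affymetrix arrays, and the authors processed the signals with GCRMA, per the submitters' processing notes; the version is not given in the sources used here. The deposited values were taken as log2 expression, which fits their range of 1.09 to 15.48, and were not normalized further. Of 22690 probe sets, 64 were controls, 20380 had 1 gene symbol in GEO's platform annotation, 691 several and 1555 none; the last 2 kinds were left out. The 40th percentile was 3.51 to 3.81 per array. This kept 8256 of 12393 genes. All 12 arrays entered 1 linear model (limma 3.58.1 under R 4.3.3, with lmFit and eBayes, 4 group means, 8 residual degrees of freedom, two-sided), and the procedure was tested on simulated data. GCRMA compresses low values, and probe sets ending in x_at or s_at may bind related transcripts. Members, lists and naming rule (every member accounted for, and up to 4 genes of each further list with the smallest p) were chosen with earlier results of these data known. Alternatives were other normalizations, filters, probe set rules, priors, weights, a sex term, a replicate block and leaving out arrays.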

Additional observations from a re-analysis of the deposited data

Results flagged for a closer look

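In 4 members the genotype difference changed between ages by the interaction test. The change, 13 weeks minus 9 weeks on the log2 scale, was 2.21 for Slc7a5 (differences of 1.87 at 13 weeks and -0.34 at 9 weeks). It was 1.32 for Iars (1.25 and -0.08), where control mouse 3 at 13 weeks was the lowest array. It was -1.18 for Pars2 (-1.61 and -0.43) and -0.647 for Asns (-0.73 and -0.09). On their second probe sets Iars changed by 0.43 and Asns by -0.58, and neither passed in a fit of every probe set.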

How the results depend on the processing

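The 30 calls of single members over the 5 comparisons gave 772 values under the alternatives, of which 668 passed in the same direction, 104 no longer passed and 0 changed direction. At 9 weeks 2 members were higher and 0 lower. With array weights these were 11 and 2, with the replicate block 1 higher, at an adjusted p under 0.01 1 higher, and without 1 array 0 to 3 higher. At 13 weeks 6 members were lower, against 3 in a fit to the compared groups alone, 3 at an adjusted p under 0.01 and 3 to 6 without 1 array, while the 9 higher were 7 to 11 without 1 array. In the change between ages, 2 were higher and 2 lower. These were 1 and 3 after median centring, 0 and 3 with no filter, 2 and 1 with a filter at the 60th percentile, 4 and 5 with array weights, 2 and 1 with the replicate block, 0 and 0 at an adjusted p under 0.01, and 0 to 3 and 0 to 3 without 1 array. For age in mutants the 9 calls were 18 with array weights, and for age in controls the 0 calls of limma's test were 2 with no filter and 5 with array weights. Without both mutant mouse 3 at 9 weeks and control mouse 3 at 13 weeks, an alternative chosen after seeing the data, 3 members were higher and 1 lower at 9 weeks, 4 were higher and 4 lower in the change between ages, and 3 were called for age in controls. The cause of these moves was not tested. Over all genes, the 413 calls at 9 weeks were 62 to 1358 without 1 array, 55 at an adjusted p under 0.01 and 2749 with array weights, and the 1523 calls of the change between ages were 763 to 3343 over all alternatives. The 12 calls for age in controls were 0 to 25 without 1 array and 0 to 598 over all alternatives. The replicate numbers did not pair the mice: deviations of same-numbered mutants and controls correlated between -0.07 and 0.18, and 3 of 6 mutant arrays correlated best with the control of their own number. Another background correction could not be run from processed values. With 3 arrays a group, small differences are not excluded for members that did not pass.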

Other observations

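Probe sets of 1 gene differed in some members. All 4 Phgdh probe sets were higher in mutants at 9 weeks, by 0.50, 0.52, 0.67 and 0.83, without a call in a fit of every probe set (lowest adjusted p = 0.0777), and mutant mouse 3 had the highest value on each. At 13 weeks the same probe sets differed by -0.05, 0.42, -0.12 and 0.08. One of 4 Wars probe sets, with 4.52 in control mouse 3 at 9 weeks and 6.41 to 7.90 on the other arrays, differed by 0.98 at 9 weeks and -0.65 at 13 weeks, while the most abundant one differed by 0.003 and -0.10. Aars had differences of 0.16 and 0.57 at 13 weeks on its probe sets, and their mean passed (0.37, adjusted p = 0.0237). Vars, the valine enzyme, lay between 2.92 and 3.95 on all arrays, with 1 mutant array at 13 weeks above the percentile.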
